A study of Mus musculus with 8 samples.

Results

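The miR-25/92 microRNAs were followed with both strands of their hairpins in bone marrow LSK cells of diabetic db/db and control db/m mice. They were taken by name, as every row of the count table called miR-25, miR-92a or miR-92b with any strand or copy suffix. That gave 6 of 190 mature miRNAs, namely mmu-miR-25-3p, mmu-miR-25-5p, mmu-miR-92a-3p, mmu-miR-92a-1-5p, mmu-miR-92b-3p and mmu-miR-92b-5p (the species prefix is left out from here on), and all 6 passed the filter on low counts that left 144 for testing. The rule used names alone, and the genotype comparisons of these rows were tested. The members were, however, chosen with earlier results of these data known.

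LSK cells lack the lineage markers of mature blood cells and carry Sca1 and cKit, and blood stem cells and multipotent progenitors are among them. The db/db group held 4 libraries of the strain B6.BKS(D)-Leprdb/J, labelled homozygous at the leptin receptor. The db/m group held 4 libraries of B6.BKS(D)-Leprdb/+ db/m, labelled heterozygous, so both groups carry the db allele, a leptin receptor mutation that causes obesity and diabetes when homozygous. Every library is labelled as 6 months after diabetes, with no age given. The comparison asks which LSK small RNAs differ between the genotypes. Genotype and strain labels set the groups, because every title reads db/m. The titles open with a number that db/m replicates 1 to 3 share, and db/m replicate 4 has one to itself. db/db replicates 1 and 2 share another, and db/db replicates 3 and 4 one more. Nothing in the labels says what it marks or that each library is a different animal, and p-values therefore measure only the spread between these samples. No number occurs in both genotypes, so no comparison of the genotypes within a number can be made. The libraries of each number were also summed, which leaves 2 sums against 2. Deeper libraries weigh more in such sums, and 186 miRNAs then pass the filter. The spread between libraries of the same number is lost in the sums, so their p-values do not measure it.

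A miRNA hairpin is cut into a short duplex of a 5p and a 3p strand. Usually the guide strand is kept in the Argonaute protein and the other, the passenger, is mostly lost, and the guide finds its messenger RNAs mainly through its seed, bases 2 to 8 from its 5′ end. In this family the 3p strands are usually taken as the guides, and they share 1 seed. miR-92a belongs to the miR-17-92 cluster, which drives proliferation and survival of blood progenitors, and has a second copy in the related cluster on the X chromosome. miR-25 lies with miR-106b and miR-93 in the cell-cycle gene Mcm7, and is known to repress the pro-apoptotic gene Bcl2l11 (Bim).

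The mature sequences are shown because they set which strands can act on the same targets and which can be confused in counting. They are from RefSeq (GRCm38.p6), with the seed in capitals.
miR-25-3p: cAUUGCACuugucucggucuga
miR-92a-3p: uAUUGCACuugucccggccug
miR-92b-3p: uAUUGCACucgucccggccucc
miR-25-5p: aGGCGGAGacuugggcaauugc
miR-92a-1-5p: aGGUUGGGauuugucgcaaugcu
miR-92b-5p: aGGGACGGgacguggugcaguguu

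All 3 of the 3p strands carried the seed AUUGCAC, and each of the 5p strands had a seed of its own that no other of the 163 miRNAs matched to RefSeq by name shared. Counted from the 5′ end, miR-92a-3p and miR-25-3p differ at 3 of 21 positions (U1C, C14U and C18U, the base of miR-92a-3p first). miR-92a-3p and miR-92b-3p differ at 2 of 21 positions (U10C and G21C), so a read of one that carries an error or is cut short at its 3′ end can resemble the other. How reads were shared out between such close sequences is not stated in the labels or headers, and the low counts of miR-92b-3p beside the abundant miR-92a-3p are uncertain for that reason.

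The hairpins are shown with both mature strands in capitals, the 5p strand on the left, because the strand comparisons below set these stretches against each other.
Mir25: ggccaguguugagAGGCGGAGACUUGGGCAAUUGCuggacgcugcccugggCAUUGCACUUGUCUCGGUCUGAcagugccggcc
Mir92-1: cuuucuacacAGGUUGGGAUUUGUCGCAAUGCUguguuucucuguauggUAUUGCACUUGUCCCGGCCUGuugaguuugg
Mir92-2: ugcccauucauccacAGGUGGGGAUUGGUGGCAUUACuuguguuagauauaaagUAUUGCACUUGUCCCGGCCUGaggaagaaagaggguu
Mir92b: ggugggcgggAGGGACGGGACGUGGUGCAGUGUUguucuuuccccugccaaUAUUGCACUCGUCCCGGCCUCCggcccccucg

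Mir25 lies on the minus strand at chr5:138165321-138165404 (GRCm38), within an annotated exon of at least 1 transcript of Mcm7, on the same strand. Mir92-1 lies on the plus strand at chr14:115044427-115044506, in an exon of Mir17hg, the long non-coding host RNA of the miR-17-92 cluster. Mir92-2 lies on the minus strand at chrX:52741838-52741928 and Mir92b on the minus strand at chr3:89227116-89227198, and neither overlaps a host gene in GENCODE release M21. Mir92-1 and Mir92-2 give the same 3p strand, so miR-92a-3p counts cannot be divided between chromosomes 14 and X, whereas miR-92a-1-5p comes from chromosome 14 alone. The strand miR-92a-2-5p had no row among the 190 mature miRNAs counted.

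Library totals ran from 36145 to 54228 counts in db/db and from 13273 to 77834 in db/m. Levels are given in CPM, counts relative to the library size after TMM scaling (trimmed mean of M-values), which limits the pull of a few abundant miRNAs. A count of 3 was worth 52.3 to 81.0 CPM in db/db libraries and 40.3 to 229 CPM in db/m libraries, the coarsest being db/m replicate 2. RNA integrity numbers were 9.8 for db/db replicate 4, 9.5 for db/m replicate 4 and 10 for the other 6. Surface markers of the sort have no miRNA counterpart in the table. Of 9 stem and progenitor miRNAs 8 had a row, with summed levels of 97365 to 130661 CPM in db/db and 68265 to 103704 CPM in db/m, and 2 passed adjusted p of 0.05 by edgeR, miR-126a-3p and miR-196b-5p, both higher in db/db. Of 4 erythroid miRNAs only miR-486a-5p had a row, at 1108 to 5754 CPM in db/db and 2252 to 3388 CPM in db/m, while miR-451a and both strands of miR-144 had none. The myeloid miR-223-3p stood at 6619 to 12739 CPM in db/db and 7641 to 10364 CPM in db/m, and the lymphocyte miR-150-5p at 2980 to 4107 CPM in db/db and 3523 to 8864 CPM in db/m. Of 8 miRNAs of tissues other than blood 4 had a row, and their sum was 641 to 1999 CPM in db/db and 689 to 1757 CPM in db/m. The part of cell makeup in the values below was not tested, and in bulk libraries fewer cells of a type and less RNA per cell cannot be told apart.

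Mature miRNAs of the family are 21 to 24 bases long, so counts were compared between them without a correction for length, and how well each sequence enters a library is not known. Over all 8 libraries miR-92a-3p averaged 61927 CPM, sixth of 190, miR-25-3p 11732 CPM and miR-25-5p 1271 CPM. Then came miR-92a-1-5p at 349.9 CPM, miR-92b-5p at 308 CPM and miR-92b-3p at 279 CPM, and these 3 overlapped across libraries, so their order is not beyond their spread. The upper part of the order held in every library. miR-92a-3p alone made up between 75.8% and 85.4% of the counts of the 5 strands other than miR-92a-1-5p, and miR-25-3p between 11.6% and 22.1%.

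The 3p strands come first. All 3 had log2 fold changes below 0 in db/db, and none passed the threshold. miR-92a-3p stood at 50324, 44015, 69647 and 36209 CPM in db/db replicates 1 to 4, against 53468, 69533, 86901 and 85322 CPM in db/m replicates 1 to 4. The groups overlapped, since db/db replicate 3 lay above db/m replicates 1 and 2. Its mean was 50049 ± 14284 CPM in db/db and 73806 ± 15663 CPM in db/m (SD, n = 4 each), a log2 fold change of -0.56 with an SE of 0.21. In the edgeR quasi-likelihood test the adjusted p, by the Benjamini-Hochberg method over the 144, was 0.136. With the libraries of each title number summed it passed, at a log2 fold change of -0.72. The adjusted p by edgeR, over 186 miRNAs and with 2 sums against 2, was 0.000111. That test does not see the spread within a number, such as 69647 and 36209 CPM in db/db replicates 3 and 4. In the sum of db/m replicates 1 to 3, replicate 3, the deepest, gave 6463 counts, against 2018 and 910 from replicates 1 and 2.

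miR-25-3p varied least among the 6. It stood at 10804, 10202, 12130.1 and 10554 CPM in db/db replicates 1 to 4, against 11897, 12989.7, 13688 and 11589.6 CPM in db/m replicates 1 to 4. db/db replicate 3 was higher than db/m replicates 1 and 4, and the rest of db/db lay below all of db/m. The means were 10922 ± 842 CPM in db/db and 12541 ± 973 CPM in db/m (SD, n = 4 each). The log2 fold change was -0.20 (SE 0.16, edgeR adjusted p = 0.526).

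miR-92b-3p, which shares all but 2 compared positions with miR-92a-3p, was close to the limit of counting. It had 17, 7, 10 and 4 counts in db/db replicates 1 to 4, and 13, 4, 33 and 18 counts in db/m replicates 1 to 4. After TMM scaling the groups did not overlap, with 88.3 to 296 CPM in db/db and 306 to 444 CPM in db/m. Relative to library totals they did overlap. There db/db replicate 1, with 17 of 54228 counts, lay above db/m replicate 2, with 4 of 13273. The means were 198 ± 101 CPM in db/db and 359.7 ± 59.0 CPM in db/m (SD, n = 4 each), or -0.89 on the log2 scale (SE 0.39, edgeR adjusted p = 0.185). In db/m replicate 2, the lowest of its group, the value rests on 4 counts.

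Of the 5p strands, miR-25-5p differed most between the genotypes and came nearest to the threshold. It had 47, 54, 35 and 30 counts in db/db replicates 1 to 4, which were 819, 1049, 946 and 662 CPM. In db/m replicates 1 to 4 it had 59, 17, 111 and 122 counts, or 1563, 1299, 1492 and 2337 CPM. All of db/db lay below all of db/m. The mean was 869 ± 167 CPM in db/db and 1673 ± 457 CPM in db/m (SD, n = 4 each), which is 1.95-fold lower in db/db, or -0.96 on the log2 scale (SE 0.26, edgeR adjusted p = 0.0549). The highest library, db/m replicate 4, also had the lowest RNA integrity number (9.5). Without it the log2 fold change was -0.75 (adjusted p = 0.197 by edgeR), against -1.07 with db/m replicate 2 left out (adjusted p = 0.0445) and -1.10 with db/m replicate 3 left out (adjusted p = 0.0288). With the libraries of each title number summed it was -1.16 (adjusted p = 0.0048). The authors' deposited table gives miR-25-5p a false discovery rate of 0.0181 at -1.06 on the log2 scale, and none of the other 5 strands is below 0.05 there, the next being miR-92a-3p at 0.0812. Those values come from the authors' own processing, not from the fit used here. Without a filter, over 190 miRNAs, the edgeR fit used here gave miR-25-5p -1.06 with an adjusted p of 0.0578.

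The other two 5p strands were both rare and scattered widely between libraries. miR-92a-1-5p had 25, 16, 17 and 14 counts in db/db replicates 1 to 4, and 8, 1, 57 and 12 counts in db/m replicates 1 to 4. Its levels were 379 ± 79.9 CPM in db/db and 321 ± 305 CPM in db/m (SD, n = 4 each), and the log2 fold change was 0.03 (SE 0.50, edgeR adjusted p = 0.978). The db/m libraries held both the highest and the lowest value, and the db/db libraries lay between them. miR-92b-5p had 6, 15, 26 and 12 counts in db/db replicates 1 to 4, and 2, 4, 28 and 19 counts in db/m replicates 1 to 4, or 341 ± 255 CPM in db/db and 275 ± 151 CPM in db/m (SD, n = 4 each). db/db replicate 3 lay above all of db/m and db/m replicate 1 below all of db/db, and the other libraries overlapped. Its log2 fold change was 0.22 (SE 0.59, edgeR adjusted p = 0.931). The sign of both log2 fold changes turned under other settings, miR-92a-1-5p for example to -0.15 without db/m replicate 2 and miR-92b-5p to -0.27 without db/db replicate 3.

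**Figure D1:**
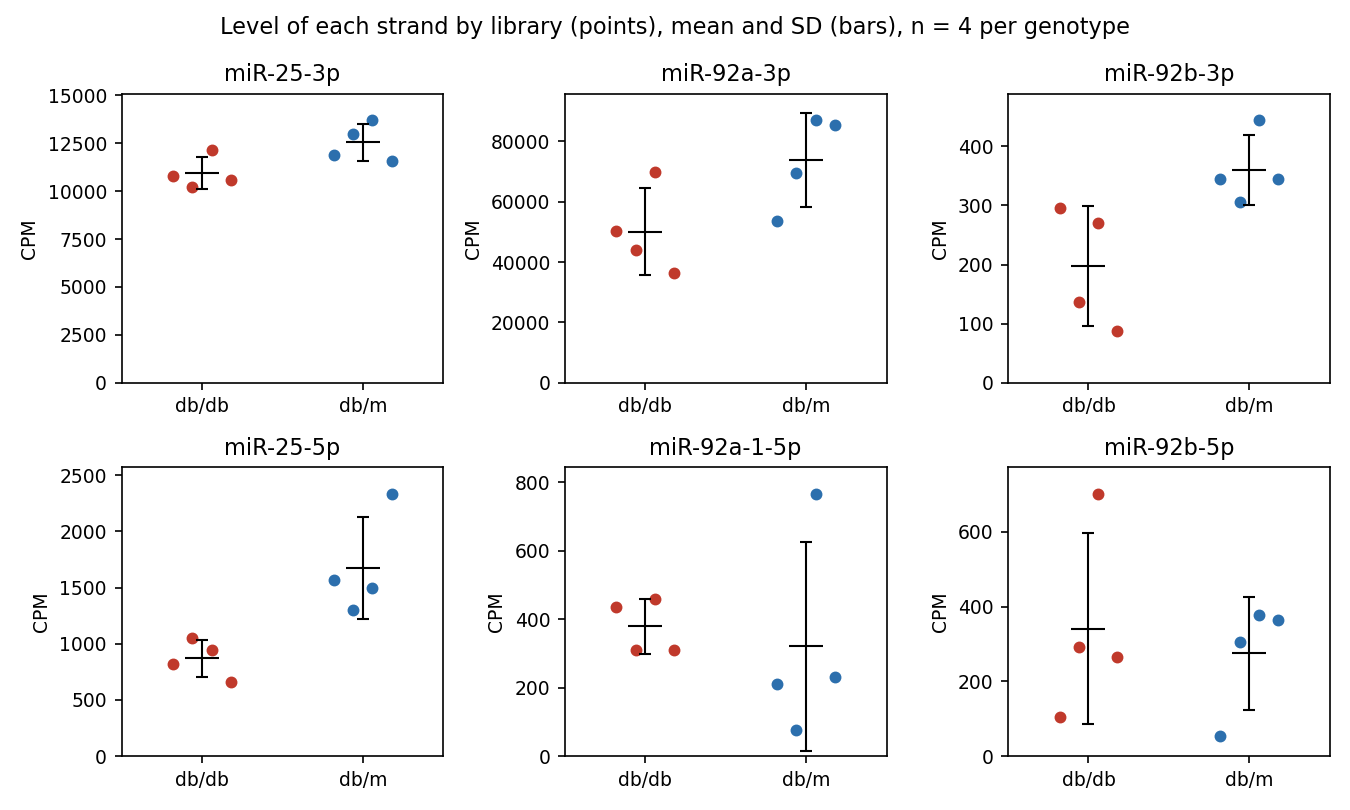
Level in CPM (vertical axes, starting at 0 and scaled per panel) of the 6 strands in db/db (red) and db/m (blue) libraries. Points are libraries and bars the mean and SD of 4. For miR-25-5p the db/db points lie between 662 and 1049 CPM, below the db/m points at 1299 to 2337 CPM, while the points of miR-92a-1-5p and miR-92b-5p overlap.

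Across the 6 strands 4 log2 fold changes were below 0 and 2 above, with a median of -0.38. Over all 144 tested miRNAs 54.2% were below 0 and the median was -0.03. Of the 6, 0 passed adjusted p of 0.05 by edgeR, where 7 of 144 (4.86%) did, 2.78% higher and 2.08% lower in db/db. That number was 3 without db/db replicate 1, db/m replicate 1 or db/m replicate 4 and 18 without db/m replicate 3. At unadjusted p under 0.05 there were 3 of the 6 (miR-25-5p, miR-92a-3p and miR-92b-3p), against 22.2% of all tested. After TMM scaling the groups did not overlap for 2 of the 6 (miR-25-5p and miR-92b-3p), against 17.4% of all tested. Both of these lay lower in db/db, and 13 of all 144 tested (9.03%) were likewise lower with groups that did not overlap. For miR-92b-3p the groups overlapped when counts were taken relative to library totals. With 3 and 2 members these shares are descriptions of a small set.

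The clusters that carry these hairpins hold other miRNAs. The seed relatives looked for, miR-32-5p, miR-363-3p and miR-367-3p, had no row among those analysed here. Of 18 seed relatives and cluster mates in all, 11 had a row and 8 were tested. None of the 8 passed by edgeR, with 0 at unadjusted p under 0.05 (smallest adjusted p 0.471), and their log2 fold changes ran from -0.37 to 0.41 with a median of 0.12. In the miR-106b-25 cluster, miR-93-5p, which targets cell-cycle inhibitors, averaged 13244 ± 1345 CPM in db/db and 13276 ± 3856 CPM in db/m (SD, n = 4 each). Its log2 fold change was -0.01 (SE 0.21), and 0.09 with library totals as the scale. miR-106b-3p, the other tested mate of miR-25, had 0.21 (SE 0.32). In the miR-17-92 cluster the 5 tested mates of miR-92a-3p had log2 fold changes from -0.18 (miR-17-5p) to 0.41 (miR-17-3p), and in the X-linked cluster the only tested mate, miR-20b-5p, had -0.37 (SE 0.38). The differences between miR-25 or miR-92a and their mates were not tested.

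**Figure D2:**
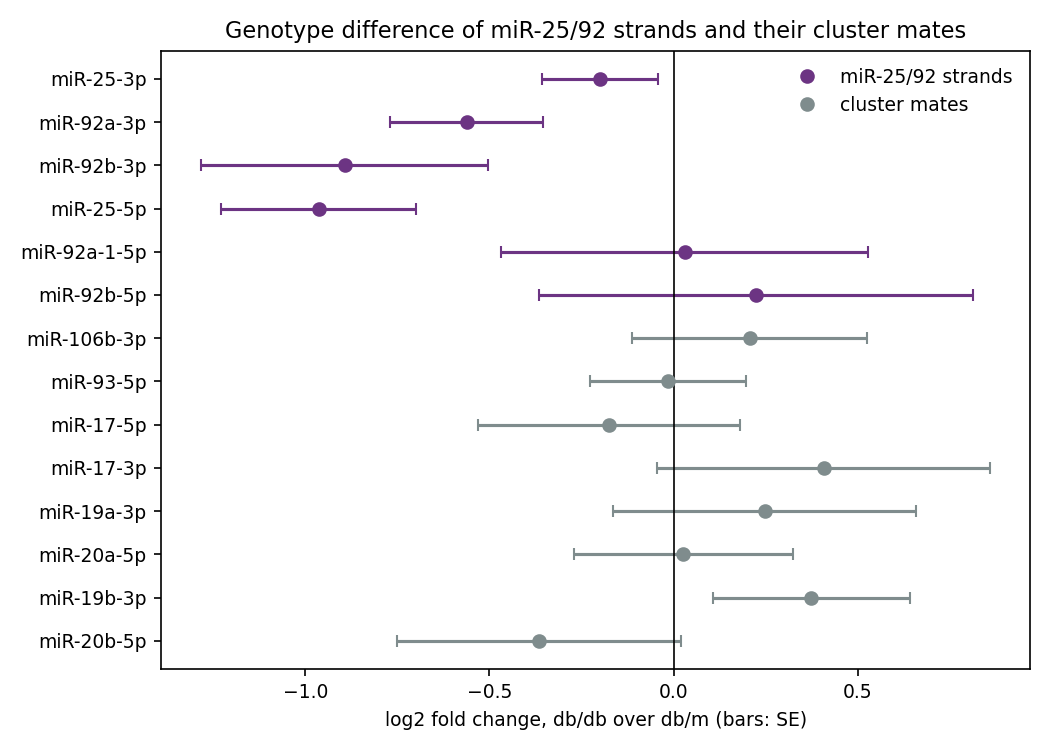
Log2 fold change of db/db over db/m (horizontal axis; bars are the SE of edgeR's fit) for the 6 miR-25/92 strands (purple) and the 8 tested cluster mates (grey). The strands run from -0.96 for miR-25-5p to 0.22 for miR-92b-5p, and the mates from -0.37 to 0.41.

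The balance between the strands of a hairpin can be read within each library, where the scaling between libraries cancels. For miR-25 the 3p strand was counted 13.2, 9.72, 12.8 and 15.9 times as often as the 5p strand in db/db replicates 1 to 4, against 7.61, 10, 9.17 and 4.96 times in db/m replicates 1 to 4. The groups overlapped by 1 pair of libraries, db/db replicate 2 lying just under db/m replicate 2. The mean ratio was 12.9 ± 2.54 in db/db and 7.94 ± 2.22 in db/m (SD, n = 4 each). In a fit of both strands over 14 hairpins, those with a 3p and a 5p strand of the same name both tested (strands with a copy number, as in miR-92a-1-5p, have no such partner), the log2 ratio of 3p to 5p for miR-25 was higher in db/db by 0.76 (SE 0.30), with an adjusted p of 0.0829 by edgeR's quasi-likelihood test (unadjusted p of 0.0118). An exact two-sided permutation test of the log2 ratios gave p = 0.0571, where the smallest p that 4 against 4 libraries allow is 0.0286. Without db/m replicate 4, the library with the lowest ratio, the difference was 0.53 (adjusted p = 0.15 by edgeR), and with the libraries of each title number summed it was 0.93 (adjusted p = 0.0161).

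For miR-92b neither strand was in excess in all libraries, and in db/db replicates 2 to 4 the 5p strand was the more counted. The 3p strand had 2.83, 0.467, 0.385 and 0.333 times the counts of the 5p strand in db/db replicates 1 to 4, against 6.5, 1.0, 1.18 and 0.947 times in db/m replicates 1 to 4. In both genotypes replicate 1 stood apart with an excess of 3p, on 6 counts of the 5p strand in db/db and 2 in db/m. Pooled, there were 38 counts of 3p and 59 of 5p in db/db, and 68 of 3p and 53 of 5p in db/m. The log2 ratio differed by -1.13 (SE 0.74, adjusted p = 0.262 by edgeR; exact permutation p = 0.257). Without db/db replicate 1 it was -1.83 with an adjusted p of 0.0423 by edgeR, and without db/m replicate 1 it was -0.70 with an adjusted p of 0.725.

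The 3p strand of miR-92a far outnumbered the 5p strand of its chromosome 14 hairpin, although the 3p counts may include the X-linked copy. The ratio was 116, 142, 152 and 117 in db/db replicates 1 to 4, against 252, 910, 113 and 371 in db/m replicates 1 to 4, and the highest of these rests on 1 count of the 5p strand. The log2 ratios, with 0.5 added to each count, averaged 6.99 ± 0.19 in db/db and 8.11 ± 1.03 in db/m (SD, n = 4 each), and the difference of -1.12 had an exact two-sided permutation p of 0.143. This ratio was added after the data were examined.

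Among the 14 hairpins, 1 (7.14%) passed adjusted p of 0.05 by edgeR for a change of strand balance, and 4 (28.6%) had an unadjusted p under 0.05. That count was 3 without db/db replicate 1, and 2 without db/db replicate 3 or db/m replicate 4. The one that passed was miR-423, whose 3p strand gained on its 5p strand by 1.30 (SE 0.19) in db/db, and miR-25 had the next smallest p. The median size of the change over all 14, whatever its sign, was 0.52 on the log2 scale. In db/m 8 of the 14 hairpins had more 3p than 5p counts on average, and miR-25, at a mean log2 ratio of 3.65 ± 0.29 in db/db and 2.92 ± 0.44 in db/m (SD, n = 4 each), had the highest of them.

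**Figure D3:**
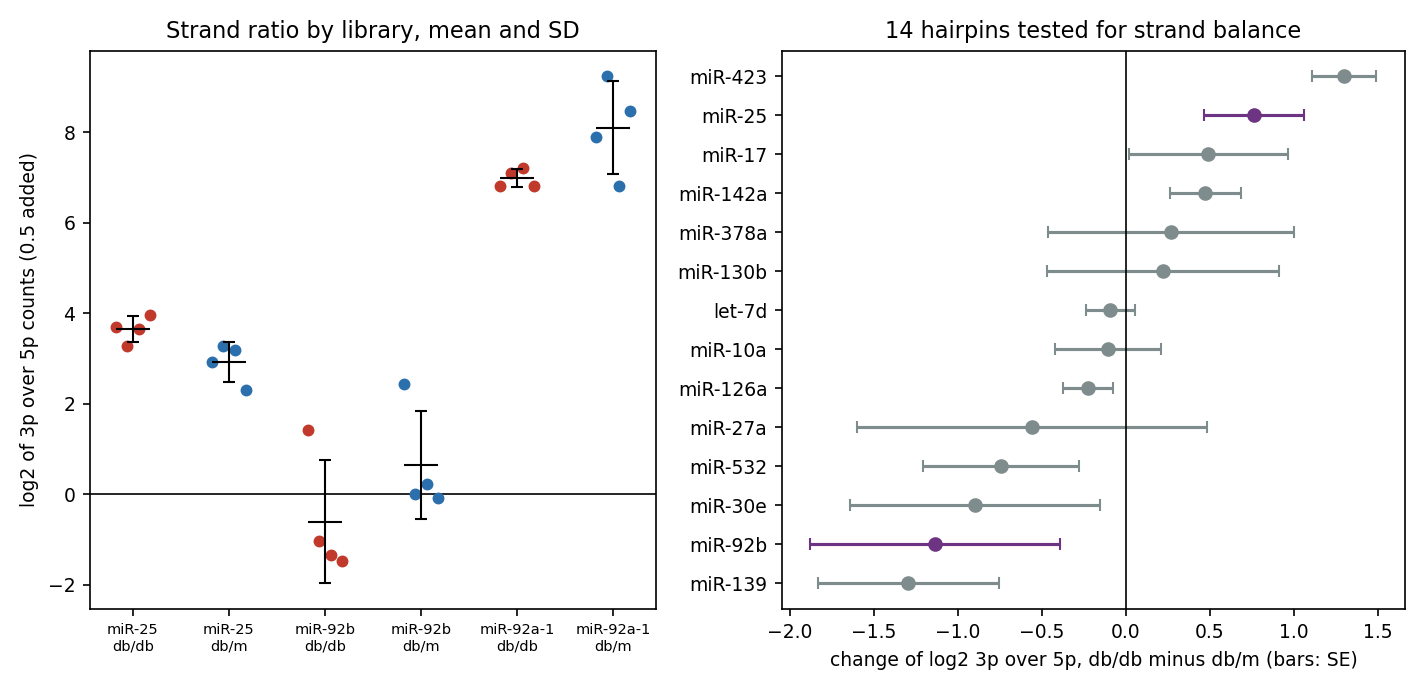
Left, log2 of 3p over 5p counts (0.5 added to each) by library for the miR-25, miR-92b and miR-92a-1 hairpins in db/db (red) and db/m (blue), with the mean and SD of 4. Right, the change of that ratio, db/db minus db/m, with its SE for the 14 hairpins tested, where miR-25 lies at 0.76, miR-92b at -1.13 (both purple) and miR-423 at 1.30.

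Ratios between the 3p strands compare the loci in the same way. miR-92a-3p had 4.66, 4.31, 5.74 and 3.43 times the counts of miR-25-3p in db/db replicates 1 to 4, against 4.49, 5.34, 6.35 and 7.36 times in db/m replicates 1 to 4. The log2 ratio averaged 2.16 ± 0.31 in db/db and 2.53 ± 0.31 in db/m (SD, n = 4 each), a difference of -0.38 (exact two-sided permutation p = 0.171). For miR-92b-3p against miR-25-3p the log2 ratio averaged -5.86 ± 0.72 in db/db and -5.06 ± 0.13 in db/m (SD, n = 4 each), a difference of -0.79 (exact permutation p = 0.0571). Only db/db replicate 1 reached into the db/m range. For miR-92b-3p against miR-92a-3p the averages were -8.01 ± 0.49 in db/db and -7.60 ± 0.28 in db/m (SD, n = 4 each), a difference of -0.42 (exact permutation p = 0.171).

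Together the 5 strands other than miR-92a-1-5p held 6.60%, 5.72%, 8.57% and 4.83% of all miRNA counts in db/db replicates 1 to 4, against 6.27%, 8.33%, 9.83% and 9.55% in db/m replicates 1 to 4. The 95% Wilson intervals of these shares, which cover counting error only, reached 0.198 to 0.47 percentage points to either side, less than the spread between libraries. The mean was 6.43% ± 1.60 in db/db and 8.49% ± 1.62 in db/m (SD, n = 4 each), and the difference of -2.07 percentage points did not pass (exact two-sided permutation p = 0.143). Adjusted over these 4 comparisons of ratios and share, every p became 0.171.

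**Figure D4:**
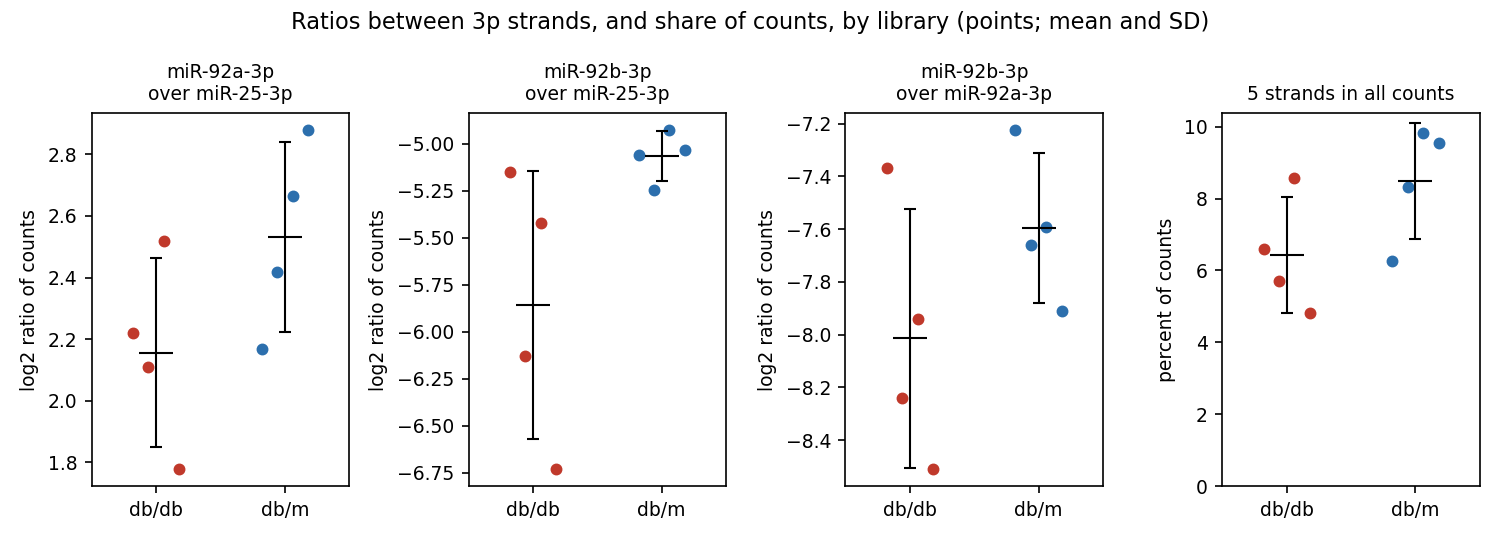
Log2 ratios of counts between the 3p strands (first 3 panels, 0.5 added to each count) and percent of all counts held by the 5 strands (right panel, axis from 0) in db/db (red) and db/m (blue) libraries, with the mean and SD of 4. In each panel the mean is lower in db/db and the groups overlap.

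The miRNAs whose log2 CPM followed each strand most closely over the 8 libraries were found as a description, in which genotype, depth and library are shared by all points. For miR-92a-3p they were its seed partners miR-92b-3p (Pearson's r = 0.85) and miR-25-3p (0.81), then let-7b-5p (0.81). For miR-25-3p they were miR-425-5p (0.86), miR-374b-5p (0.84) and miR-181b-5p (0.83). miR-25-5p followed its own 3p strand with r = 0.49, and was most like miR-320-3p (0.95), let-7c-5p (0.94) and let-7b-5p (0.93). miR-92b-3p was most like miR-92a-3p (0.85), miR-669c-5p (0.81) and miR-25-3p (0.77), and had r = -0.08 with its own 5p strand. By rank (Spearman's rho) the first 3 were at 0.83, 0.52 and 0.69. For miR-92a-1-5p the closest were miR-17-5p (0.89) of its own cluster, miR-101b-3p (0.89) and let-7i-5p (0.88), with r = 0.07 for miR-92a-3p. Spearman's rho was lower for miR-17-5p (0.57) and let-7i-5p (0.64), and 0.88 for miR-101b-3p. For miR-92b-5p they were miR-5099 (0.69), miR-7a-5p (0.59) and miR-486a-5p (0.56).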

How the data were processed

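Small RNA libraries were made with the QIAseq miRNA kit from total RNA of sorted LSK cells, for which Trizol was used, per the labels' protocols. The authors deposited raw counts per mature miRNA for 8 libraries, with their own log2 CPM values and log2 fold changes, signed fold changes, treated as a score, p-values and false discovery rates, per the file headers. The deposited project sheet gives the RNA integrity number, also read as a score, and shows that all libraries shared 1 run. The processing notes of the submitters name edgeR 3.41.9 and mm10. Neither aligner, use of molecular identifiers nor any earlier filter is stated, so intervals cover counting error only.

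Columns were joined to samples by the number and suffix in their names, and 0 were left without a sample. The count test was edgeR 4.0.16 in R 4.3.3 (filterByExpr with minimum count 10 and minimum total 15, TMM, glmQLFit robust, glmQLFTest, 6 residual degrees of freedom). The SE was the size of the log2 fold change over the square root of F. The strand fit used both strands of a hairpin with library, strand and strand by genotype as terms, also with 6 residual degrees of freedom. Ratios and shares were compared by exact permutation over 70 assignments. On simulated tables of the db/db and db/m libraries, 47.8% of 2-fold and 89.7% of 4-fold changes passed in the fit over 144 miRNAs, and 81.2% of 4-fold strand changes in the fit over 14 hairpins. Alternatives were other scalings, no filter, the likelihood ratio test, DESeq2 1.42.0, limma 3.58.1 on strand ratios, other pseudocounts, leaving out each library, and summing libraries of 1 title number.

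The miRNAs named are the 6 rows, their cluster mates and seed relatives, and the 3 miRNAs most like each by Pearson correlation of log2 CPM (prior count 2). For strand balance they are miR-25, miR-92b and any hairpin past the threshold. Members and lists were chosen with earlier results of these data known. miR-92a-1-5p was found by the naming rule only once the table was read, so the share of counts was fixed for the other 5.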

Additional observations from a re-analysis of the deposited data

Results flagged for a closer look

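In both genotypes 1 library stood far from the other 3 of its group in the log2 ratio of miR-92b-3p to miR-92b-5p. It was db/db replicate 1, at 1.43, and db/m replicate 1, at 2.43, and the gap to the nearest library was 0.853 of the group's range in db/db and 0.877 in db/m. These libraries had 6 and 2 counts of miR-92b-5p. A gap of that size arises by chance in about 1 in 20 groups of 4, and 26 groups were looked at.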

How the results depend on the processing

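No paired analysis was possible because the replicate numbers only follow accession order and the numbers in the titles do not recur across genotypes. The number of miRNAs past adjusted p of 0.05 was 7, and 12 by the likelihood ratio test, 16 by DESeq2, 15 with libraries of 1 title number summed (2 against 2) and 11 with miR-92a-3p left out of the library size, a setting added after the data were examined. It ran from 3 to 18 when single libraries were left out. miR-25-5p kept its direction in all 16 alternatives, between -1.16 and -0.75. It passed in 6 of them. These included -0.97 by the likelihood ratio test (adjusted p = 0.0139), -0.95 by DESeq2 (0.014) and -1.16 with summed libraries (0.0048). It also passed at -1.0 without miR-92a-3p in the library size (0.0391), and without db/m replicate 2 (0.0445) or db/m replicate 3 (0.0288). In the other 10 it did not pass, for example with library totals (0.0696 by edgeR) or no filter (0.0578). Over all alternatives its adjusted p ran from 0.0048 to 0.197. The log2 fold change of miR-25-5p ran from -1.10 to -0.75 without single libraries. miR-92a-3p passed only with summed libraries, at -0.72, and its adjusted p ran from 0.000111 to 0.305. Without single libraries it ran from -0.70 to -0.40. miR-25-3p (-0.28 without a filter to -0.09 with library totals) and miR-92b-3p (-1.19 without db/db replicate 1 to -0.58 without db/db replicate 4) kept their direction and did not pass in any alternative run. The sign of miR-92a-1-5p turned without a filter (-0.014), with summed libraries (-0.065) and without some single libraries (-0.15 to 0.89), and that of miR-92b-5p without some single libraries (-0.27 to 0.54). DESeq2 gave no adjusted p to either miR-92b strand. For the strand balance 2 hairpins passed with no filter or with summed libraries, and 1 to 3 without single libraries. miR-25 passed by edgeR with no filter (0.76, adjusted p = 0.0439) and with summed libraries (0.93, 0.0161), and did not pass in the other 10 alternatives. Its adjusted p was 0.139 by limma with 0.5 added, and reached 0.455 by edgeR without db/db replicate 3. The change of miR-25 ran from 0.53 to 0.90 without single libraries, where that of miR-92b ran from -1.83 to -0.70. The ratios between 3p strands and the share of counts kept their sign in every alternative run, and none passed. With a library left out the exact permutation test has too few assignments to reach 0.05. Those runs therefore show sign and size only. Their sizes moved, without db/db replicate 4 to -0.25 for miR-92a-3p to miR-25-3p, -0.50 for miR-92b-3p to miR-25-3p and -0.25 for miR-92b-3p to miR-92a-3p. The last was also -0.63 without db/db replicate 1, and the share differed by -4.22 points with let-7 left out of the denominator. Scaling by library totals raised the median log2 fold change of all tested miRNAs by 0.11. The cause of these shifts was not tested. Depth limits both miR-92b strands and miR-92a-1-5p most, with 1 to 57 counts per library.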

Other observations

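All 6 strands were richer in G and C than the tested miRNA at the median (47.6% over the 125 of 144 with a RefSeq sequence). The share ran from 47.8% in miR-92a-1-5p and 50.0% in miR-25-3p to 57.1% in miR-92a-3p, 59.1% in miR-25-5p, 62.5% in miR-92b-5p and 63.6% in miR-92b-3p. Across those 125 miRNAs, which are not independent replicates and share the same 8 libraries, the log2 fold change of db/db over db/m went with the G and C share at Pearson's r = -0.31 and Spearman's rho = -0.32. This was looked at after the data were examined, and the part of base composition in the values above was not tested.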
